A study of Homo sapiens with 2 samples.

Results

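The genes described here are 10 core members of the Notch pathway and their relatives: the receptors NOTCH1, NOTCH2 and NOTCH3, the canonical ligands DLL1, DLL3, DLL4, JAG1 and JAG2, the ligand-like gene DNER and the target gene HES1. They were taken by gene symbol from 22465 genes measured on the arrays, and each of the 10 was measured by 1 probe set, a transcript cluster that summarises the probes of one gene. RNA came from NCI-H446, a cell line established from a human small cell lung carcinoma, after stable transfection of either an MTA1 overexpression plasmid (the MTA1 array) or a control vector (the control array). MTA1 is a subunit of NuRD, a complex that remodels nucleosomes and removes acetyl groups from histones. The promoter of the plasmid, and whether the stable cells were 1 clone or a pool, are not stated in the labels. Each group was 1 array, so there was no spread between replicates and no test, and the differences describe these 2 arrays alone. The 10 genes were selected on the signals and differences of this same comparison, which were known when they were chosen, so the values stand as a description.

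Notch signalling passes between touching cells. A ligand of the Delta-like or Jagged family on one cell binds a Notch receptor on its neighbour, ADAM proteases and then gamma-secretase cut the receptor, and its freed intracellular part enters the nucleus, where it joins the DNA-binding protein RBPJ and a Mastermind coactivator and switches on repressors of the HES and HEY families. In small cell lung cancer the pathway is known for its opposition to the neuroendocrine programme, since HES1 and REST repress neuroendocrine genes, and for DLL3, a ligand that inhibits Notch inside its own cell and is the target of antibody-based drugs.

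HES1 is the textbook example of a gene switched on through RBPJ, and its promoter is shown because it holds matches to the RBPJ core motif. The sequence below is the 250 bases before its start site from RefSeq (GRCh38.p14, chr3:194135898-194136147, plus strand). Capitals mark the RBPJ core TGGGAA, with the preceding G where the longer GTGGGAA is present, and the search covered both strands.
HES1: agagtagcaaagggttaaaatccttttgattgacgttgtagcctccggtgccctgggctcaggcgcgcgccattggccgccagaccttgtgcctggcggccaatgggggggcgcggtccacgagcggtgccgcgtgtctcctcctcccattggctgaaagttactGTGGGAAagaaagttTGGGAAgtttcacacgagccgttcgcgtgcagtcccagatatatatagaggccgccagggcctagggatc
The GTGGGAA begins 85 bases before the start site and the other TGGGAA begins 70 bases before it, with 8 bases between the 2 cores, both on the plus strand. Each of 4 relatives of HES1 holds GTGGGAA, or its reverse complement TTCCCAC, in the same window. They are shown as 40-base stretches, 5′ to 3′ on the strand of the gene, with the motif in capitals: HES4 (chr1:1000149-1000188, minus strand), HES5 (chr1:2530319-2530358, minus strand), HEY2 (chr6:125749405-125749444, plus strand) and HEYL (chr1:39639796-39639835, minus strand).
HES4: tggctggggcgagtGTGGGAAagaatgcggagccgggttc
HES5: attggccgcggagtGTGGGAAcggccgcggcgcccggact
HEY2: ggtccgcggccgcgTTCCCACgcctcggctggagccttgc
HEYL: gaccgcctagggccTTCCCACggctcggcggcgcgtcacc
GTGGGAA occurred in 5 of 9 target gene promoters that the RefSeq table held, in 0 of 7 promoters of the receptors (NOTCH4 included) and canonical ligands, and in 5.46% of 27305 promoters of the same length. The shorter TGGGAA, which every GTGGGAA contains, occurred in 21.1% of them. These are matches of letters and do not show binding. Promoters of DNER, DLL1 and DLL3 were not used here.

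MTA1 itself had a log2 signal of 9.82 on the MTA1 array, against 7.31 on the control array, a 5.71-fold difference. The values are log2 signals, and a gene counted as above the floor if either array reached 3.62, the median over all transcript clusters. Among 14451 such genes, 0.63% differed by 2-fold or more, 0.291% being higher and 0.339% lower on the MTA1 array, and 3.2% by 1.5-fold or more. The median difference was -0.01 and 9 in 10 genes lay between -0.36 and 0.36. On the MTA1 array the bacterial spike-in controls were also brighter, bioB by 0.23, bioC by 0.24, bioD by 0.23 and cre by 0.28, a shift as large as most differences described below. The deposited values reach 19.93, above the 16 that a 16-bit scanner allows on the log2 scale, so a further transformation is possible, which would change the fold sizes. Signals were compared between the arrays for the same gene or the same summed list, and no order of genes by signal was drawn, since probes differ in brightness.

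DNER was the 1 gene of the 10 that differed at least 2-fold, and it was lower in the MTA1 cells. Of the 10, 8 were at or above the floor on at least 1 array, 7 of them on both. On the deposited scale 6 of the 8 were higher and 2 lower on the MTA1 array, where 46.4% of all genes were higher and 53.6% lower. Their median difference was 0.12, but scaling the arrays to the spike-in controls left 7 above the floor, 0 of them higher and 7 lower. Of the 14451 genes at or above the floor on the deposited scale, called all genes throughout, 9.47% were higher under that scaling. Beside DNER, the 6 genes above the floor on both arrays lay between -0.13 and 0.23 on the deposited scale. They were at most 1.18-fold apart there, with a median of 0.12. Under the spike-in scaling, which moved the median of all genes to -0.26, these 6 lay between -0.37 and -0.01. Their median was then -0.12, and DLL4 was under the floor.

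**Figure D1:**
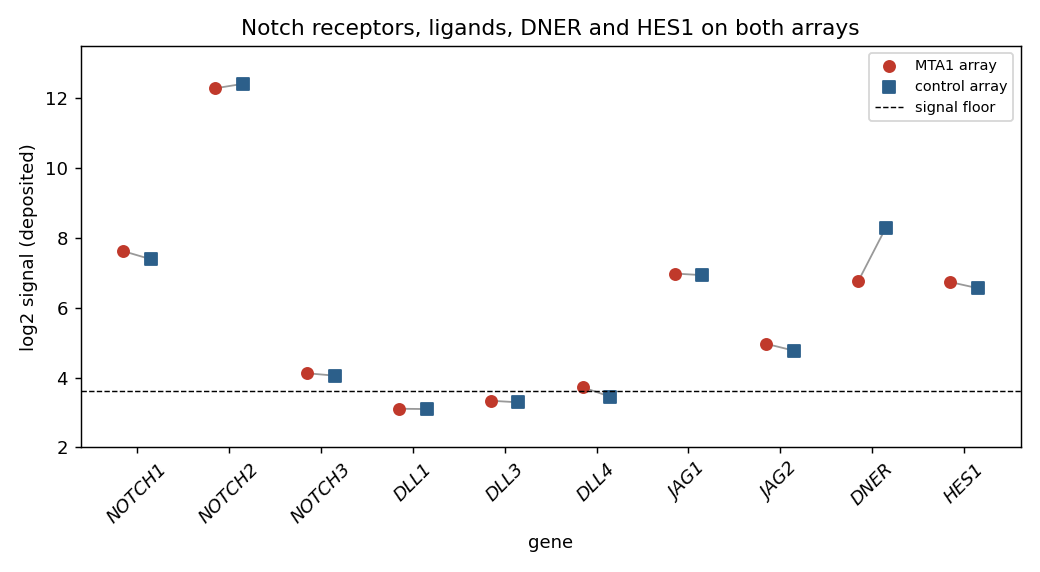
Log2 signal (vertical axis) of the 10 genes on the MTA1 array (red circles, left of each pair) and on the control array (blue squares), with the floor of 3.62 as a dashed line and 1 array per group. DNER is the pair that is visibly apart, at 6.77 and 8.30, while DLL1 and DLL3 lie under the floor on both arrays.

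Among the receptors, NOTCH1 on chromosome 9, the family member with a known tumour suppressor role in small cell lung cancer, had a log2 signal of 7.62 on the MTA1 array and 7.39 on the control array. The difference of 0.23, or 1.18-fold, was exceeded on the higher side by 10.3% of genes. Scaled to the spike-in controls it was -0.01, so its direction rests on the scaling.

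NOTCH2 on chromosome 1 gave 12.29 on the MTA1 array and 12.41 on the control array, a difference of -0.13 or 1.09-fold. It was the only one of the 3 receptors that was lower on the deposited scale. Scaled to the spike-in controls its difference was -0.37. Part of NOTCH2 has near-identical copies on the same chromosome, the NOTCH2NL genes, which act on NOTCH signalling in human cortical progenitors, and probes may not tell them apart. The probe set named NOTCH2NL gave 11.94 on the MTA1 array and 12.11 on the control array. A further one that NOTCH2NLA shares with NBPF10 and NBPF26 gave 12.79 on the MTA1 array and 12.99 on the control array, so all 3 probe sets were lower, by 0.13 to 0.20 in size.

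NOTCH3 on chromosome 19, which is both a receptor and a known transcriptional target of Notch, had 4.13 on the MTA1 array and 4.06 on the control array. This is 1.05-fold and close to the floor. The fourth receptor, NOTCH4, is not among the 10 and is best known from endothelium. Its brightest probe set gave 3.68 on the MTA1 array and 3.66 on the control array, at the floor, and its 7 probe sets, 6 of them on alternative contigs, differed by -0.01 to 0.07.

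The Jagged ligands were both above the floor. JAG1 on chromosome 20 had a log2 signal of 6.98 on the MTA1 array and 6.94 on the control array, a difference of 0.05. JAG2 on chromosome 14 had 4.97 on the MTA1 array and 4.77 on the control array, or 1.14-fold. Both were higher on the deposited scale, and both were below 0 when scaled to the spike-in controls, at -0.20 for JAG1 and -0.05 for JAG2.

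The Delta-like ligands were at or under the floor. DLL3, on chromosome 19, gave 3.34 on the MTA1 array and 3.29 on the control array, under the floor on both. DLL1 on chromosome 6, a ligand that activates receptors on neighbouring cells, gave 3.11 on the MTA1 array and 3.10 on the control array, also under the floor on both. For neither can a difference be read at these signals. DLL4 on chromosome 15, the ligand that restrains sprouting of blood vessels, gave 3.72 on the MTA1 array and 3.45, under the floor, on the control array. On the deposited scale its signal on the MTA1 array was 1.08-fold above the floor. Under the spike-in scaling DLL4 did not reach the floor on either array, and its difference was 0.03. Of 5 endothelial markers fixed beside it, 4 were under the floor on both arrays, PECAM1 was at 4.08 on the MTA1 array and 4.12 on the control array, and the summed unlogged signal of the 5 was 54.9 on the MTA1 array and 53.8 on the control array.

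DNER on chromosome 2 encodes a transmembrane protein with EGF-like repeats, first described in neurons, that lacks the DSL domain with which canonical ligands grip the receptor. In the mouse cerebellum it was reported to act through Notch on glial cells. Its log2 signal was 6.77 on the MTA1 array and 8.30 on the control array, well above the floor on both. The difference of -1.53, or 2.89-fold, was rank 7 from the lowest among the 14451 genes. Of the 1699 genes whose mean signal lay within 0.5 of that of DNER, 1 had a lower difference, and 9 in 10 lay between -0.33 and 0.36. DNER had 1 probe set, so no second one bears on the value. Over 4 other scalings the difference ranged from -1.78 to -1.48, or 3.42-fold to 2.78-fold lower.

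**Figure D2:**
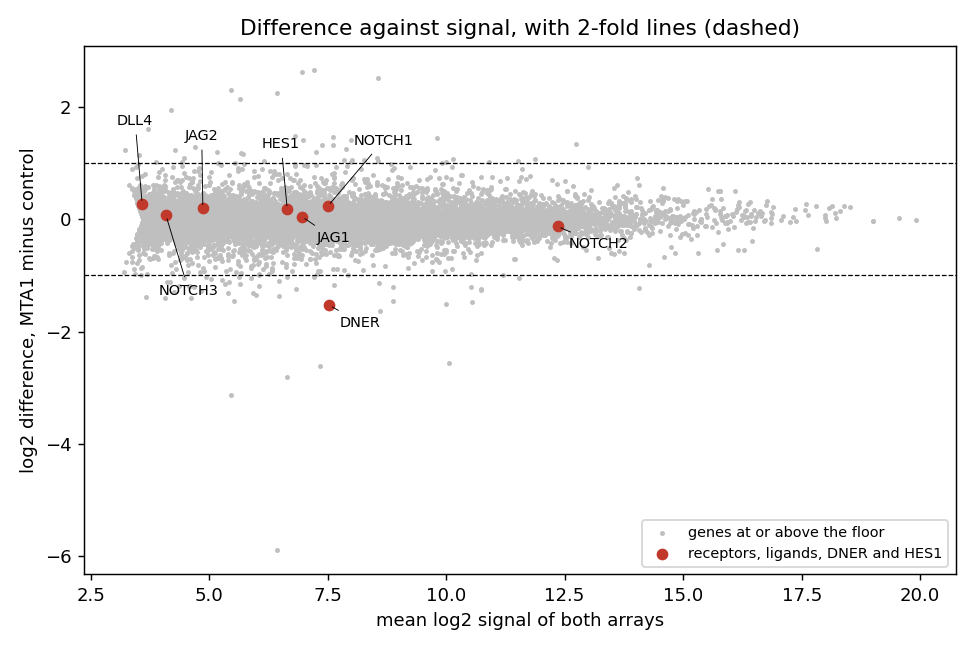
Log2 difference, MTA1 minus control (vertical axis), against the mean log2 signal of both arrays (horizontal axis) for 14451 genes (grey), with the 8 Notch genes at or above the floor in red and dashed lines at 2-fold. DNER, at -1.53, lies below the lower line, and the other 7 lie within the grey cloud, with DLL4 drawn at its measured 0.27 although its control signal was under the floor.

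The protein-coding neighbours of DNER were compared, 3 on each side in the order of the RefSeq table. PID1, the adjacent gene, which encodes an adaptor protein tied to insulin signalling, gave 5.75 on the MTA1 array and 6.22 on the control array, or 1.38-fold lower. On the other side TRIP12, a ubiquitin ligase gene, gave 11.80 on the MTA1 array and 11.94 on the control array. FBXO36 differed by -0.02 and SLC16A14 by 0.15, SPHKAP was under the floor on both arrays, and DAW1 was not analysed here. DNER, chosen with its difference known, had the largest difference of the 6 measured genes of this stretch. None of the 5 neighbours reached 1.5-fold, which 3.2% of all genes did. Of all genes, 2.74% had a lower difference than PID1.

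**Figure D3:**
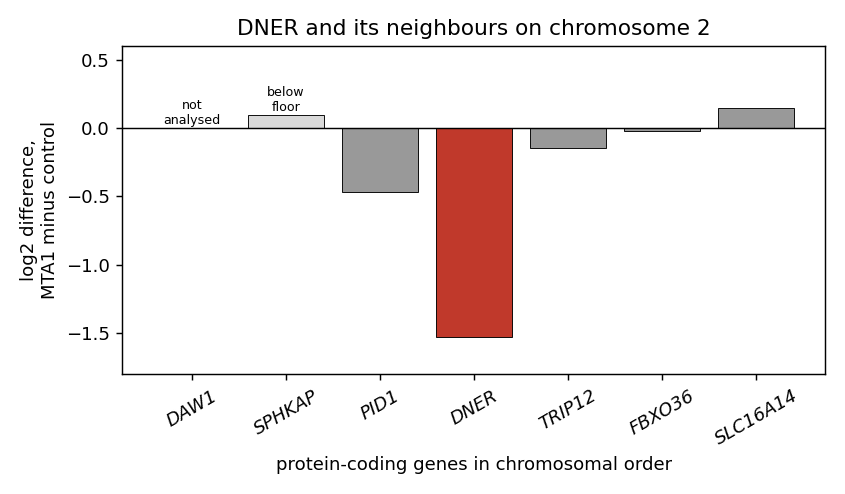
Log2 difference, MTA1 minus control (bars from 0), of DNER (red) and its protein-coding neighbours in chromosomal order (grey, lighter where both arrays were under the floor). DNER stands at -1.53 and PID1 at -0.47, and the others lie between -0.14 and 0.15.

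HES1, on chromosome 3, encodes a basic helix-loop-helix repressor that silences proneural genes. Its log2 signal was 6.74 on the MTA1 array and 6.56 on the control array, 1.13-fold apart. The difference of 0.18 was exceeded by 15.1% of genes, and it was -0.07 when scaled to the spike-in controls. The other genes with the motif shown above were close on both arrays too. HES4 gave 4.80 on the MTA1 array and 4.66 on the control array, and HEY2 gave 4.35 on the MTA1 array and 4.38 on the control array. HES5 and HEYL were under the floor on both arrays.

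Most neuroendocrine markers were under the floor in both kinds of cell. Of 9 markers of neuroendocrine small cell lung cancer, 7 were measured and 2 reached the floor. These were INSM1, a zinc finger regulator of the neuroendocrine state, at 4.21 on the MTA1 array and 4.06 on the control array, and UCHL1, a neuronal ubiquitin hydrolase gene, at 5.21 on the MTA1 array and 5.30 on the control array. CHGA, SYP, NCAM1, GRP and DDC were under the floor on both arrays, and the other 2 were not analysed here. The summed unlogged signal of the 7 was 108.3 on the MTA1 array and 108.2 on the control array. Of the 7, 5 were higher on the deposited scale and 0 with the spike-in scaling. Over all genes at or above the floor these shares were 46.4% and 9.47%. For the markers under the floor a direction cannot be read. Of the 2 that reached it, INSM1 was higher and UCHL1 lower on the deposited scale. All 6 non-neuroendocrine markers, REST, YAP1, VIM, CD44, AXL and ANXA1, were above the floor, and 5 of the 6 were higher on the MTA1 array on the deposited scale, where 46.4% of all genes were. With the spike-in scaling VIM, AXL and ANXA1 were higher and 3 of the 6 lower, against 9.47% of all genes higher. Of 5 epithelial markers, 5 were higher on the deposited scale and 3 with the spike-in scaling, among them KRT19, a keratin, at 6.04 on the MTA1 array and 5.18 on the control array, and KRT8 at 14.39 on the MTA1 array and 13.66 on the control array. CDH1, counted among the 5, was under the floor on both arrays. Other marker lists were mostly near or under the floor, where a direction cannot be read. On the deposited scale 4 of 5 endothelial, 3 of 4 fibroblast, 4 of 4 leukocyte and 2 of 3 tuft-like markers were higher. Under the floor on both arrays were 4 endothelial, 2 fibroblast, 4 leukocyte and 1 tuft-like marker. The 46.4% covers only genes at or above the floor, so it is no match for these counts. With the spike-in scaling 1 of the leukocyte markers was higher, and 0 endothelial, fibroblast or tuft-like ones. The part of these markers in the Notch gene values was not tested. REST, a repressor of neuronal genes that Notch is known to raise in small cell lung cancer, was 9.68 on the MTA1 array and 9.69 on the control array. The usual neuroendocrine markers of small cell lung cancer were thus mostly under the floor in either culture.

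A wider list of 88 pathway genes, sorted by role and holding the 10, showed 1 gene past 2-fold in each direction, MFAP5 higher and DNER lower on the MTA1 array. Of all genes, 0.291% were 2-fold higher and 0.339% 2-fold lower. DNER was already among the 10 chosen with their differences known, and with the spike-in scaling it was the 1 gene of the list past 2-fold. Of the 88, 81 had a probe set of their own and 73 reached the floor, with 37 higher, 36 lower and a median difference of 0.01, against -0.01 over all genes. On the deposited scale 46.4% of all genes were higher. Scaled to the spike-in controls, 7 of the 72 that then reached the floor were higher and 65 lower. Of the 14451 genes at or above the floor on the deposited scale, 9.47% were higher under that scaling. Beside the 10, 11 of 65 genes, or 16.9%, passed 1.2-fold, 6 higher and 5 lower, against 17.7% of all genes.

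Among non-canonical ligands DNER had a counterpart in the other direction. MFAP5, a microfibril protein reported to bind Jagged1 and Notch1, had a log2 signal of 8.38 on the MTA1 array and 7.32 on the control array, 2.08-fold higher, or 0.81 on the log2 scale and under 2-fold with the spike-in scaling. Its relative MFAP2 had 6.42 on the MTA1 array and 6.14 on the control array, or 1.21-fold, and its difference was 0.03 with the spike-in scaling. CCN3, a secreted matricellular protein that binds Notch1, had 9.18 on the MTA1 array and 8.99 on the control array, and its difference was -0.05 with the spike-in scaling. DLK1, DLK2 and EGFL7 differed by -0.04, -0.04 and 0.07, and CNTN1 and CNTN6 were under the floor on both arrays. Of the 7 non-canonical ligands at or above the floor, 4 were higher and 3 lower, where 46.4% of all genes were higher. With the spike-in scaling 2 were higher and 5 lower, where 9.47% of all genes were higher.

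Of the 7 glycosylation and 8 cleavage genes at or above the floor, which modify and cut the receptor, only GXYLT2 passed 1.2-fold. Of all genes, 17.7% did. On the deposited scale 5 of 7 glycosylation genes and 7 of 8 cleavage genes were lower, where 53.6% of all genes were. With quantile normalisation repeated 5 of 7 glycosylation genes were lower, while 4 of 8 cleavage genes were lower and 4 higher. With the spike-in scaling all 7 and all 8 were lower, where 9.47% of all genes were higher. GXYLT2 adds xylose to the O-glucose of EGF repeats and had 7.38 on the MTA1 array and 8.04 on the control array, 1.57-fold lower. POGLUT1, which attaches that O-glucose, was 1.18-fold lower, at 7.10 on the MTA1 array and 7.33 on the control array. Of the proteases, ADAM17 was 1.12-fold lower, and the gamma-secretase subunit gene PSENEN was 1.16-fold higher on the deposited scale but -0.02 on the log2 scale with the spike-in scaling. The medians were -0.07 for glycosylation and -0.05 for cleavage.

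In the ligand endocytosis group 1 of 4 genes passed 1.2-fold, and in the trafficking and turnover group 3 of 9, against 17.7% of all genes. These 4 are ubiquitin ligase genes, which is not one of the roles of the list. MIB1, the ligase that marks ligands for the endocytosis that pulls on the receptor, had 10.03 on the MTA1 array and 9.49 on the control array, 1.45-fold higher. With the spike-in scaling its log2 difference was 0.29. NEURL1, a Neuralized-type ligase for ligands, had 4.65 on the MTA1 array and 4.44 on the control array, and its difference was -0.04 with the spike-in scaling. NEDD4, a ligase that promotes receptor turnover, had 10.04 on the MTA1 array and 10.71 on the control array, 1.60-fold lower. The Deltex relatives DTX3L and DTX4 were 1.48-fold and 1.34-fold lower. In the trafficking and turnover group 4 of 9 genes were higher and 5 lower, with DTX1 under the floor. With the spike-in scaling 0 were higher and 9 lower. Of all genes, 46.4% were higher on the deposited scale and 9.47% with the spike-in scaling.

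The nuclear machinery was close to level. RBPJ had 7.80 on the MTA1 array and 7.89 on the control array. The Mastermind coactivator gene MAML3 had 5.59 on the MTA1 array and 5.22 on the control array, 1.29-fold higher. The acetyltransferase gene KAT2B had 8.46 on the MTA1 array and 8.20 on the control array. With the spike-in scaling the difference was 0.12 for MAML3 and 0.01 for KAT2B. Of 12 corepressor genes 6 were higher and 6 lower, with a median of 0.01. With the spike-in scaling 0 were higher and 12 lower, with a median of -0.24. Over all genes 9.47% were then higher and the median was -0.26. The Groucho-type corepressor TLE1, through which HES proteins silence genes, had 6.02 on the MTA1 array and 6.31 on the control array, and CTBP1 was 1.13-fold lower. Of 11 target genes at or above the floor, 7 were higher and 4 lower on the deposited scale, where 46.4% of all genes were higher. With the spike-in scaling 2 were higher and 9 lower, where 9.47% of all genes were higher. The cell cycle genes CCND1, a D-type cyclin, and CDKN1A, the inhibitor p21, were both 1.23-fold higher. NRARP, a feedback inhibitor and direct target, was 1.12-fold higher, and HES7, the segmentation clock repressor, was 1.15-fold lower. With the spike-in scaling NRARP was -0.08, while CCND1 and CDKN1A were both 0.05.

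**Figure D4:**
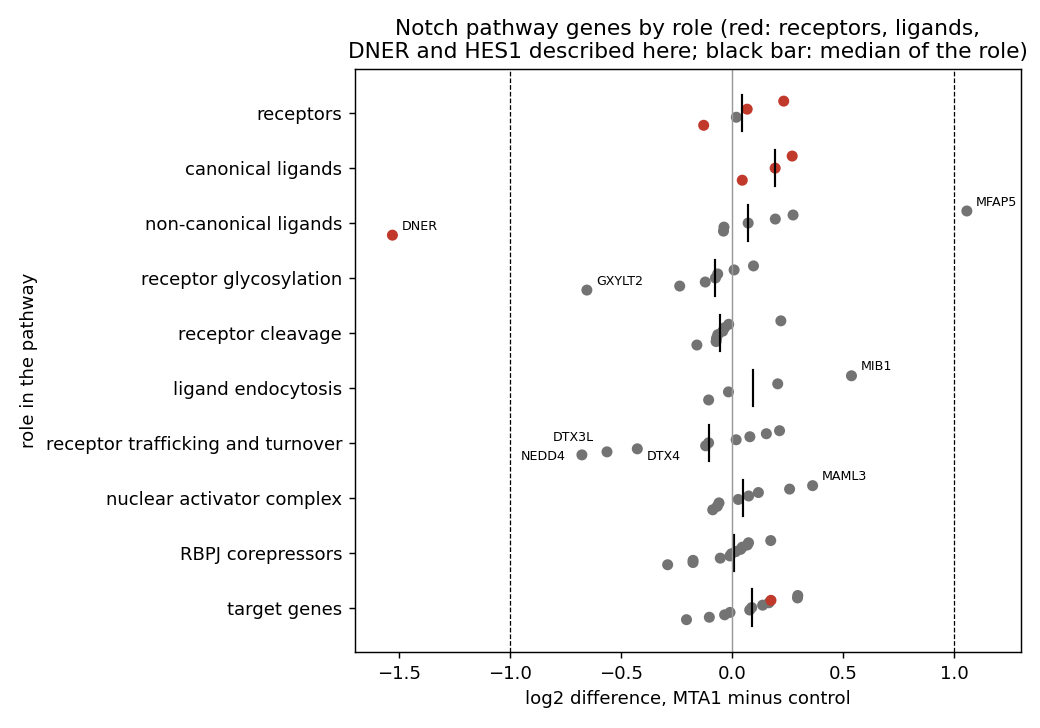
Log2 difference, MTA1 minus control (horizontal axis), of 73 Notch pathway genes at or above the floor, by role, with the 8 core genes that reached it in red, other genes in grey, role medians as black bars and 2-fold as dashed lines. DNER (-1.53) and MFAP5 (1.06) pass the lines on opposite sides, and the role medians lie between -0.11 and 0.19.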

How the data were processed

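The authors deposited 1 table of log2 signals, made with RMA, as the submitters' processing notes name it; per the file, the log2 scale follows from the range of the values. The software version, summarisation level, annotation release and genome build are not stated there. No further normalisation was applied in the reported setting. Of 70523 features, 67528 were transcript clusters, and the control array lacked 1 value. Platform annotation gave 23781 probe sets 1 symbol and 1543 several. Only the former were named, 21497 of them updated by gene identifier to RefSeq (GRCh38.p14) and 2284 with the symbol kept. A gene took its brightest probe set, and the floor was the 50th percentile of the mean signal of transcript clusters.

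The 10 genes and all lists were chosen with earlier results of these data known. Of the 88 pathway genes, 4 had only probe sets with several symbols and 3 were not analysed here. Genes named beside the 10 were those past 1.2-fold, at least the 2 with the largest difference in each role and the neuroendocrine markers; the 3 genes nearest DNER in signal, also set by the rule, are not given because probes differ in brightness; others were named after their values were seen. With 1 array per group no test was run, and the number of arrays limits the precision. The counting step was tested on simulated data. Alternatives changed the scaling, floor, probe set, threshold, list and scale. Promoters and microRNAs came from RefSeq tables. Python 3.11.15 with numpy 2.4.6, pandas 2.3.3 and matplotlib 3.10.9 and R 4.3.3 with limma 3.58.1 were used.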

Additional observations from a re-analysis of the deposited data

How the results depend on the processing

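The count of 1 gene past 2-fold was the same with a 1.5-fold threshold and under the 4 other scalings. The floor and probe set settings could not move it, since DNER has 1 probe set and lay above each floor. On the percentile rank of the signal a 2-fold count could not be given, and DNER was lower by 6.65 percentile points (-6.65). Scaling to the spike-in controls turned the sign of NOTCH1, NOTCH3, JAG1, JAG2 and HES1, and the list median was then -0.24, against -0.26 over all genes. The list median was also below 0 without the 10 genes, at -0.01, after centring each array on its median, at -0.01, and with the floor at percentile 75, at -0.01. It was 0.02 with quantile normalisation repeated and 0.03 after loess. Shifts were judged against the SD of the difference between probe sets of a gene, 0.27 over 149 genes, which covers no difference between cultures. No paired analysis was possible because each group has 1 array.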

Other observations

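MicroRNAs of the miR-34 and miR-449 family are known to restrain Notch genes, among them NOTCH1, JAG1 and DLL1, and in vertebrate airway-type epithelia miR-449 represses DLL1. Their mature sequences from RefSeq (GRCh38.p14) are given because the shared seed defines the family, with bases 2 to 8 in capitals.
hsa-miR-34a-5p: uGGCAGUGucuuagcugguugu
hsa-miR-449a: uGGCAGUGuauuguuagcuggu
hsa-miR-449b-5p: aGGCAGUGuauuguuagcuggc
hsa-miR-449c-5p: uAGGCAGUguauugcuagcggcugu
The first 3 share the seed GGCAGUG, and miR-449c-5p carries the same letters 1 base further in. The probe sets carry the names of the genes, and mature microRNA was not told apart from precursor or host transcript. MIR34A gave 4.49 on the MTA1 array and 4.70 on the control array. MIR449A gave 3.53 on the MTA1 array, which is under the floor, and 4.18 on the control array. Its neighbours on chromosome 5 were both brighter on the MTA1 array, with MIR449B at 6.24 on the MTA1 array and 5.93 on the control array, and MIR449C at 3.67 on the MTA1 array and 3.17, under the floor, on the control array. These microRNAs were picked after their values were seen.

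Of the pathway genes, 4 had only probe sets shared with another gene. The one of EP300, the acetyltransferase recruited by Mastermind, and MIR1281 gave 12.08 on the MTA1 array and 11.96 on the control array. That of LFNG, the fringe that biases receptors toward Delta-like ligands, and MIR4648 gave 4.77 on the MTA1 array and 4.68 on the control array. That of POFUT1, which attaches O-fucose to the receptor, and MIR1825 gave 8.66 on the MTA1 array and 8.89 on the control array. EPN2 shared 4 probe sets, of which the brightest gave 7.83 on both arrays. Of the remaining HES genes, HES6, which counteracts HES1, gave 4.95 on the MTA1 array and 4.96 on the control array, and HES2 and HES3 were under the floor on both.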
